A study of Capra hircus with 6 samples.

Results

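The transcripts of 8 genes of the caspase cascade and its brakes were followed in secondary hair follicle dermal papilla cells (SHF-DPCs) of the cashmere goat. They are the caspase genes CASP2, CASP6, CASP8 and CASP9, the apoptosome gene APAF1, and the inhibitor of apoptosis protein (IAP) genes XIAP, BIRC2 and BIRC3. The genes were chosen by name, and all 8 were found among the 15944 genes listed in the deposited counts. The cells were wild type primary cultures from the shoulder skin of adult Albas goats (Capra hircus, 3 years old), taken in the growth phase of the cashmere cycle and grown without the follicle epithelium that surrounds them in the skin. The control group held 3 libraries of cells cultured without all-trans retinoic acid (ATRA), and the ATRA-treated group held 3 libraries of cells given 0.1 mM ATRA for 24 h. ATRA is made from vitamin A and acts through nuclear receptors. The comparison of the groups asks how far this treatment, chosen by the study for its effect on proliferation and cell death, moved the messenger RNAs of the death machinery itself.

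Caspases are cysteine proteases that lie idle in the cytoplasm as precursors and cut other proteins after aspartate once they are activated. In the mitochondrial route, cytochrome c released from mitochondria makes the APAF1 protein assemble into the apoptosome, which activates CASP9. In the death receptor route, receptors such as FAS gather the adaptor FADD and CASP8. Both initiators then activate executioner caspases, CASP6 among them, which take the cell apart. XIAP blocks CASP9 by direct binding, whereas BIRC2 and BIRC3, also called cIAP1 and cIAP2, are ubiquitin ligases that hold CASP8 in check at the tumour necrosis factor receptor and restrain the noncanonical NF-κB pathway. In the hair cycle, death of epithelial cells shrinks the follicle in catagen, while the dermal papilla survives and is reused. Caspase activity is set mostly by cleavage of the protein, which read counts do not measure.

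Each library held 35532339 to 38012771 counts, so that even the scarcest member, CASP9, was measured on 397 to 619 reads per library. For the 8 genes the counting error of a library was 1.85% to 4.71% of the value, and the spread between the libraries of a group, as a coefficient of variation, was 2.11% to 16.1%. Levels are given as normalized CPM, read counts relative to library size after scaling by the trimmed mean of M-values (TMM) of edgeR, and are compared between libraries for the same gene only. The markers that define the cell type differed widely between the groups. Of 16 dermal papilla markers, 15 were listed and 10 tested, of which 9 were lower with ATRA (edgeR, adjusted p under 0.05), and their summed level was 8698 to 9640 CPM in the control libraries and 193 to 205 CPM in the ATRA libraries. Most of that sum was ACTA2 (6582 and 8.37 CPM on average) and VCAN (1641 and 32.4 CPM), and the median log₂FC of the tested markers was -1.99, with FGF7 at -0.23. PROM1 (CD133), ALPL and CORIN were at 3 counts or fewer in every library. Leukocyte markers summed to 9.30 to 13.0 CPM and 41.3 to 44.3 CPM, mostly CD14 and CD68, with AIF1, ITGAM and LCP1 at 3 counts or fewer, and keratinocyte markers to 3.21 to 4.98 CPM and 5.40 to 6.02 CPM. The higher keratinocyte sum came from KRT10, while KRT14 went from 20, 14 and 10 counts to 3, 0 and 0, KRT5 had at most 7 counts in any library, and CDH1, DSP, TP63 and ITGB4 had at most 3. Endothelial markers summed to 82.4 to 90.3 CPM and 15.9 to 17.6 CPM, with CDH5 at 1 count or fewer. The lower endothelial sum came from ERG, whereas 2 of the 4 tested endothelial markers were higher with ATRA, PECAM1 (0 counts in every control library and 242, 340 and 206 in the ATRA libraries) and TEK (log₂FC 0.87, edgeR adjusted p = 0.0122). The summed fibroblast markers went from 85720 to 86863 CPM in the control libraries to 4859 to 5181 CPM in the ATRA libraries (9 of 10 lower). Pericyte and smooth muscle markers went from 458 to 464 CPM to 32.3 to 35.9 CPM, adipocyte markers from 17.2 to 20.7 CPM to 3.36 to 3.96 CPM, and melanocyte markers from 16.1 to 17.6 CPM to 32.2 to 39.0 CPM. The lower adipocyte sum came from CIDEC, whereas PLIN1 and ADIPOQ were higher with ATRA (log₂FC 1.20 and 1.04), and the higher melanocyte sum came from MITF, whereas PMEL was lower (log₂FC -0.90) and TYRP1 had 3 counts or fewer. The part of these shifts in the results for the 8 genes was not tested, and in such bulk samples fewer cells of a type cannot be told apart from less RNA per cell.

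With ATRA, 1 of the 8 transcripts rose, 4 fell and 3 did not pass the test (edgeR quasi-likelihood test, two-sided, Benjamini-Hochberg adjustment over the 12588 genes tested, adjusted p under 0.05). BIRC3 was the gene that rose, by 1.76-fold, and CASP9, CASP6, CASP8 and CASP2 were those that fell. For 1 gene every ATRA library was above the control range, and for 4 genes every one was below it, against 41.2% and 39.0% of all genes tested. APAF1, XIAP and BIRC2 did not pass. Over all genes tested, 79.7% passed the same test, 40.9% as higher and 38.7% as lower, so that 5 of 8 is no excess of calls. None of the 8 genes passed the fold rule of the study's methods (|log₂FC| above 1 and an unadjusted p under 0.05), which 31.0% of all genes passed (13.7% as higher and 17.3% as lower). With that threshold set at 0.58, BIRC3 and CASP9 passed, or 2 of 8 against 49.8% of all genes. The median absolute log₂FC was 0.28 over the 8 genes and 0.59 over all genes tested. By that measure the changes of these 8 genes were small beside those of the transcriptome around them.

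The direction of a change this small depends on how the libraries are put on a common scale. The TMM factor averaged 0.847 over the control libraries and 1.18 over the ATRA libraries, and with it the median log₂FC of all genes was 0.04. Division by library size alone moved that median to 0.52, and the share of calls that were higher from 51.4% to 73.5%. A scaling factor moves every gene of a library alike, so the position of each gene against the median gene stays put. Against that median the log₂FC was -0.72 for CASP9, -0.49 for CASP6, -0.32 for CASP8, -0.31 for CASP2, -0.18 for BIRC2, -0.16 for APAF1, -0.06 for XIAP and 0.77 for BIRC3. Rises and falls named here for the 8 genes and their partners are meant in this sense, relative to the bulk of the transcripts.

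**Figure D1:**
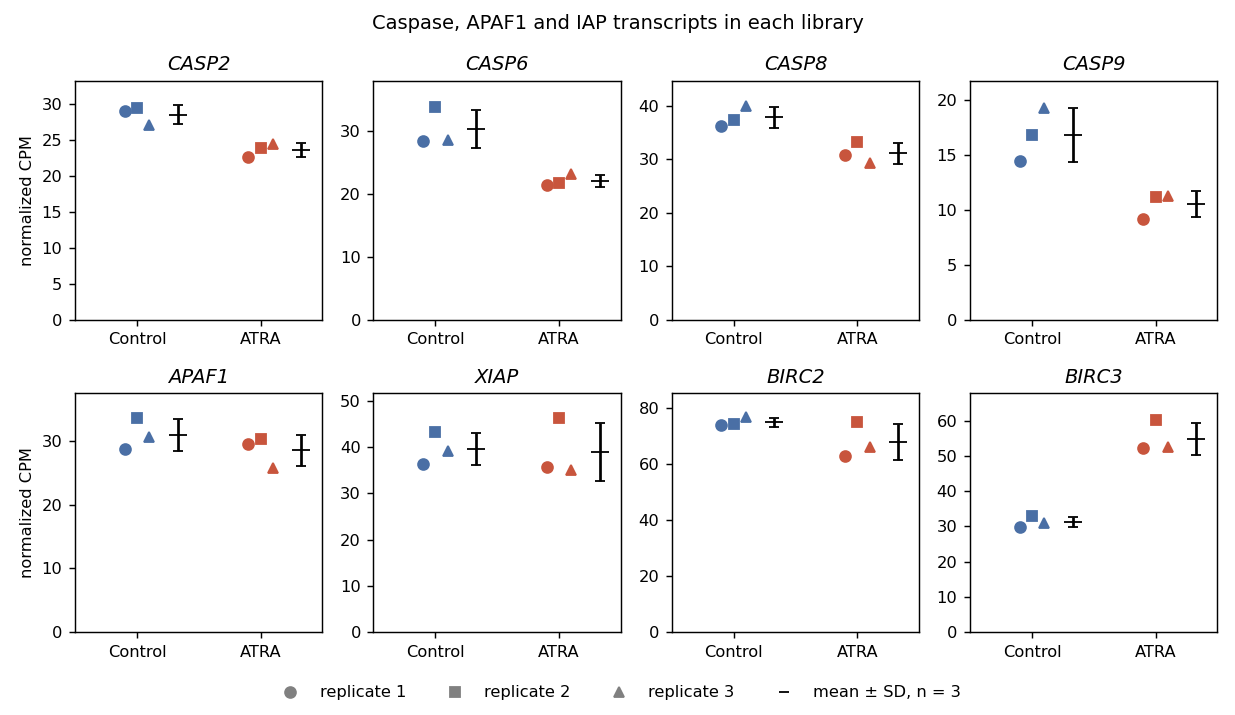
Normalized CPM (vertical axes, from 0) of the 8 genes in the 3 control and 3 ATRA libraries. Symbols mark the replicate number, and black bars give the mean ± SD (n = 3 per group). BIRC3 is higher in all 3 ATRA libraries, CASP2, CASP6, CASP8 and CASP9 are lower in all 3, and the groups overlap for APAF1, XIAP and BIRC2.

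CASP9, the initiator of the mitochondrial route, showed the largest fall of the 8. The control libraries held 14.4, 16.8 and 19.3 CPM and the ATRA libraries 9.18, 11.2 and 11.2 CPM. Every ATRA library lay below every control library, although the control group was the most scattered of those for the 4 caspases (CV 14.4%, against a counting error of 4.32%). The mean went from 16.8 ± 2.42 to 10.5 ± 1.17 CPM (SD, n = 3 each), a 1.60-fold decrease with a log₂FC of -0.68 (standard error 0.114, 95% interval -0.92 to -0.44, edgeR adjusted p = 2.83e-05). With library size alone the log₂FC was -0.20 and did not pass the test (adjusted p = 0.124, where the alternatives spanned 6.49e-08 to 0.124). In the RefSeq annotation of the goat assembly ARS1.2 the gene model of CASP9 overlaps that of an elastase gene, which had 0 counts in the control libraries and 13, 3 and 8 in the ATRA libraries.

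APAF1, whose protein is the scaffold on which CASP9 is activated, did not fall with it. Its level was 28.7, 33.7 and 30.6 CPM in the control libraries and 29.6, 30.3 and 25.8 CPM in the ATRA libraries. The groups overlapped, and the log₂FC of -0.12 (standard error 0.0838, 95% interval -0.29 to 0.06) had an adjusted p of 0.201 in the edgeR test. The interval leaves room for a fall of about the size seen in CASP2 and CASP8, so the test does not show that the level was the same. The log₂FC lay between -0.18 and -0.060 with each library left out. With library size alone it was 0.36 and passed (adjusted p = 0.00128, where the alternatives spanned 0.00128 to 0.659).

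CASP8 is the initiator recruited to death receptors. It held 36.2, 37.4 and 40.1 CPM in the control libraries and 30.8, 33.3 and 29.4 CPM in the ATRA libraries. The groups were apart by a narrow margin, with means of 37.9 ± 1.98 and 31.2 ± 1.96 CPM (SD, n = 3 each). The log₂FC was -0.28 (standard error 0.0748, edgeR adjusted p = 0.00219). With library size alone it turned to 0.20 and passed as a rise (adjusted p = 0.0264, where the alternatives spanned 5.5e-05 to 0.0264).

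CASP2 is activated on a platform of PIDD1 and CRADD after DNA damage or failed division. Its libraries held 28.9, 29.5 and 27.0 CPM without ATRA and 22.5, 23.8 and 24.4 CPM with it. Both groups were tight and did not overlap, with means of 28.5 ± 1.30 and 23.6 ± 0.949 CPM (SD, n = 3 each). The log₂FC of -0.27 (standard error 0.0759, edgeR adjusted p = 0.00329) turned to 0.21 with library size alone (adjusted p = 0.0174, where the alternatives spanned 0.00117 to 0.0259), the same reversal as for CASP8.

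CASP6 is the executioner that cuts nuclear lamins. Control libraries held 28.4, 33.8 and 28.6 CPM and ATRA libraries 21.3, 21.8 and 23.2 CPM. Control replicate 2 stood above the other two, and still the lowest control library exceeded the highest ATRA library. The level fell by 1.37-fold (log₂FC -0.46, standard error 0.0839, edgeR adjusted p = 7.47e-05). With library size alone the log₂FC was 0.022 and did not pass (adjusted p = 0.809, where the alternatives spanned 1.01e-06 to 0.809).

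BIRC3 (cIAP2) moved against the caspases. The control libraries held 29.8, 32.9 and 31.1 CPM, and the ATRA libraries 52.2, 60.1 and 52.4 CPM. The lowest ATRA library was far above the highest control library, and the means were 31.3 ± 1.52 and 54.9 ± 4.50 CPM (SD, n = 3 each). The log₂FC was 0.81 (standard error 0.0753, 95% interval 0.65 to 0.97, edgeR adjusted p = 1.34e-08). Its rise was seen under every scaling tried, from a log₂FC of 0.79 with the RLE factors to 1.29 with library size alone. Of all genes tested, 82.3% had a lower log₂FC, whereas the absolute change exceeded that of only 61.9% of genes.

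BIRC2 (cIAP1), the neighbouring gene of BIRC3 on the same chromosome, did not share that rise. It had 73.9, 74.4 and 76.8 CPM in the control libraries and 62.8, 75.0 and 66.1 CPM in the ATRA libraries. Of the latter, replicate 2 lay among the control values and the other two below them. The log₂FC was -0.14 (standard error 0.0690, 95% interval -0.29 to 0.0029, edgeR adjusted p = 0.0668). Without ATRA replicate 2 it was -0.23 and passed the test (adjusted p = 0.000904, where the alternatives spanned 0.000428 to 0.381), and with library size alone it was 0.34.

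XIAP, the direct caspase inhibitor, was the flattest of the 8. Its level was 36.4, 43.3 and 39.3 CPM in the control libraries and 35.8, 46.3 and 35.1 CPM in the ATRA libraries. ATRA replicate 2 was the highest of all 6 libraries and the other two ATRA libraries were the lowest. The log₂FC was -0.02 (standard error 0.0977, 95% interval -0.23 to 0.18, edgeR adjusted p = 0.842), larger in size than that of only 1.95% of all genes tested. Without ATRA replicate 2 the log₂FC was -0.17 (adjusted p = 0.0347, where the alternatives spanned 0.000761 to 0.935), and its sign turned with upper-quartile scaling, with library size alone, and without Control replicate 2, ATRA replicate 1 or ATRA replicate 3. In the ARS1.2 annotation its model overlaps that of a sperm acrosome gene, which had 5 counts or fewer in every library, and a pseudogene.

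ATRA replicate 2 was the highest of the ATRA libraries for 5 of the 8 genes, CASP8, APAF1, XIAP, BIRC2 and BIRC3, and ATRA replicate 3 for the other 3. Over all genes the counts of replicate 2 also differed more from those of the other ATRA libraries (chi-square per degree of freedom 18.4 and 17.3) than these did from each other (5.01). The falls of CASP2, CASP6, CASP8 and CASP9 and the rise of BIRC3 passed the test with each of the 6 libraries left out in turn.

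**Figure D2:**
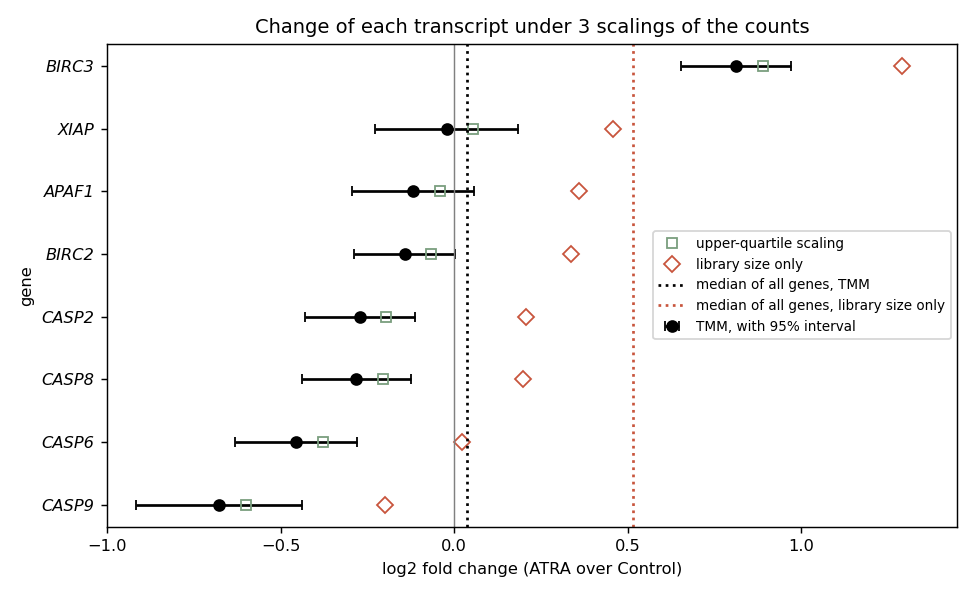
Log₂FC of each gene (horizontal axis, ATRA over Control) with TMM scaling and its 95% interval (black), upper-quartile scaling (squares) and library size only (diamonds). Dotted lines mark the median of all genes tested, at 0.04 with TMM and 0.52 with library size only. BIRC3 lies to the right of both medians under its own scaling, and the 4 caspases lie to the left.

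The ratio of 2 transcripts in the same library does not depend on scaling at all, so 8 such ratios were compared. With 3 libraries against 3, the exact permutation test (two-sided) cannot give a p below 0.1, and 7 of the 8 ratios reached that value with groups that did not overlap (adjusted p = 0.114 over the 8 pairs). The groups of 80.1% of all genes tested did not overlap either on the normalized scale. BIRC3 counted 0.404, 0.442 and 0.404 reads per read of BIRC2 in the control libraries and 0.831, 0.801 and 0.792 in the ATRA libraries. BIRC2 had more reads in every library, by far less with ATRA than without, a log2 difference of 0.96, which stayed between 0.93 and 1.00 with each library left out. These are reads per gene and were not corrected for transcript length.

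Reads of CASP9 were fewer against those of both its partners in every ATRA library than in any control library. Reads of CASP9 per read of APAF1 were 0.503, 0.499 and 0.630 in the control libraries and 0.310, 0.369 and 0.435 in the ATRA libraries, a log2 difference of -0.55. Against its inhibitor XIAP, the CASP9 reads were 0.396, 0.389 and 0.491 per XIAP read without ATRA and 0.257, 0.242 and 0.320 with it, a log2 difference of -0.64. The ratio of the executioner CASP6 to XIAP was lower too, with a log2 difference of -0.42. The ratio of APAF1 to XIAP did not separate the groups (log2 difference -0.089, exact permutation p = 0.5, adjusted p = 0.5). Its log2 difference lay between -0.17 and -0.0039 with each library left out.

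The balance of CASP8 with CFLAR, the catalytically inactive relative that competes with CASP8 for its place on FADD, also differed. There were 2.40, 2.81 and 2.83 CASP8 reads per CFLAR read in the control libraries and 1.85, 1.58 and 1.71 in the ATRA libraries. Every ATRA library was below every control library, with a log2 difference of -0.65. CFLAR itself rose from 14.2 ± 0.878 to 18.3 ± 2.45 CPM (SD, n = 3 each, log₂FC 0.37, edgeR adjusted p = 0.00282). Between the initiators, the ratio of CASP8 to CASP9 was higher with ATRA by a log2 difference of 0.39. That of CASP2 to CASP6 was higher by 0.18, with a log2 SD of 0.11 in the control group.

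**Figure D3:**
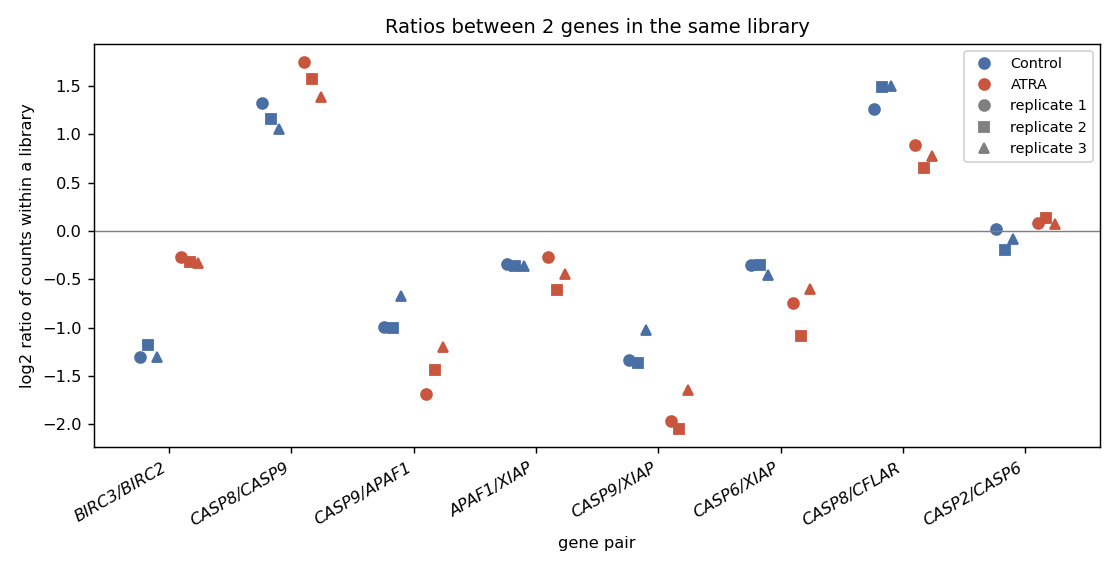
Log2 ratio of the counts of 2 genes in the same library (vertical axis) for 8 gene pairs in the control (blue) and ATRA (red) libraries, with a symbol for each replicate. The ratio of BIRC3 to BIRC2 is higher with ATRA and those of CASP9 to APAF1, CASP9 to XIAP, CASP6 to XIAP and CASP8 to CFLAR are lower, while the groups overlap for APAF1 to XIAP.

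The counts of the pathway lists stand beside the same background, 40.9% of all genes higher and 38.7% lower. The list genes named below as not passing, NAIP, PIDD1, CRADD, FADD, TRADD, TRAF3 and DFFB, passed as higher with library size alone, with a log₂FC of 0.37 for PIDD1 to 0.70 for CRADD. Of the other caspase genes, CASP14 and a CASP10 gene listed under a LOC number had 4 counts or fewer in every library. CASP1, CASP4, CASP12 and CASP13 were not found under these symbols among the listed genes and were not analysed here.

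Among the other IAP family genes, 2 of 3 tested fell and none rose. BIRC5 (survivin), which serves chromosome segregation in mitosis besides its place in the IAP family, fell from 52.0 ± 1.11 to 1.61 ± 0.215 CPM (SD, n = 3 each, log₂FC -5.01, edgeR adjusted p = 2.69e-18). BIRC6, a very large ubiquitin-conjugating IAP, had a log₂FC of -0.46 that turned to 0.024 with library size alone. NAIP had a log₂FC of 0.08 and did not pass (adjusted p = 0.437). Of 4 IAP antagonist genes tested, 2 rose and 1 fell. The mitochondrial protease HTRA2 rose from 30.9 ± 1.37 to 66.5 ± 5.69 CPM (SD, n = 3 each, log₂FC 1.11), and DIABLO (Smac), which frees caspases from XIAP, rose with a log₂FC of 0.25 (adjusted p = 0.00279). XAF1 fell with a log₂FC of -1.16 at a level near 1 CPM.

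A list of apoptosome partners and mitochondrial death factors (ENDOG and AIFM1) had 3 genes higher and 1 lower among 5 tested. The nuclease gene ENDOG had a log₂FC of 0.60, the chaperone gene HSPA8 of 0.60 and APIP, which encodes an APAF1-interacting protein, of 0.23. AVEN, an inhibitor of APAF1 assembly, had a log₂FC of -0.30 that turned to 0.17 with library size alone. The cytochrome c gene CYCS was not found under this symbol among the listed genes and was not analysed here. In the CASP2 complex, PIDD1 (log₂FC -0.11, adjusted p = 0.433) and CRADD (0.22, adjusted p = 0.284) did not pass the edgeR test. NOL3, a CARD protein that restrains caspases, was listed with them but is not a part of that complex, and rose with a log₂FC of 0.57. With Control replicate 2 left out, 1 gene of this list was called lower, in place of 0.

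On the death receptor side, 7 of 12 genes tested rose and 3 fell. The receptor genes TNFRSF21 and FAS rose with a log₂FC of 1.68 and 1.04, and the deubiquitinase gene CYLD, which removes the chains that cIAPs and their partners build, with 0.86. RIPK1, a substrate of the cIAPs, rose by 0.48 and TNFRSF1A by 0.28 on the log2 scale. TNFRSF25 and PEA15, whose product binds FADD and CASP8, fell with a log₂FC of -1.85 and -1.14. BID, the CASP8 substrate that carries the signal to mitochondria, had a log₂FC of -0.28 that turned to 0.20 with library size alone. The adaptors FADD (0.07, adjusted p = 0.380) and TRADD (0.13, adjusted p = 0.201) did not pass. The ligand genes FASLG and TNFSF10 had at most 1 count in any library. A TNFRSF10B gene listed under a LOC number, which those counts leave out, had a log₂FC of -0.04 and did not pass (edgeR adjusted p = 0.664).

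The genes that work with BIRC2 and BIRC3 in NF-κB control were split, with 5 of 10 higher and 4 lower. The noncanonical subunit genes RELB and NFKB2 rose with a log₂FC of 1.20 and 0.68, and TRAF2, which brings the cIAPs to the receptor, with 0.90. TRAF1 and MAP3K14 (the kinase NIK that cIAPs mark for degradation) had a log₂FC of -0.64 and -0.57, which with library size alone kept their sign (-0.17 and -0.092) but did not pass. TRAF3, at a log₂FC of 0.10, did not pass (adjusted p = 0.162), and the falls of TAB1 and MAP3K7 turned with library size alone. Among 12 caspase substrates and nucleases, 7 fell and 3 rose. The lamin genes LMNB1 and LMNA, which encode the CASP6 substrates, fell with a log₂FC of -3.36 and -2.97, and SPTAN1 with -1.34. XKR8, a scramblase that exposes phosphatidylserine once cut, rose with a log₂FC of 0.92, ACIN1 with 0.23 and ICMT with 0.20. DFFB, the nuclease that cuts DNA in apoptosis, had a log₂FC of -0.01 (adjusted p = 0.936), and DFFA, its inhibitor and a caspase substrate, fell with -0.61, or -0.13 and no call with library size alone.

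**Figure D4:**
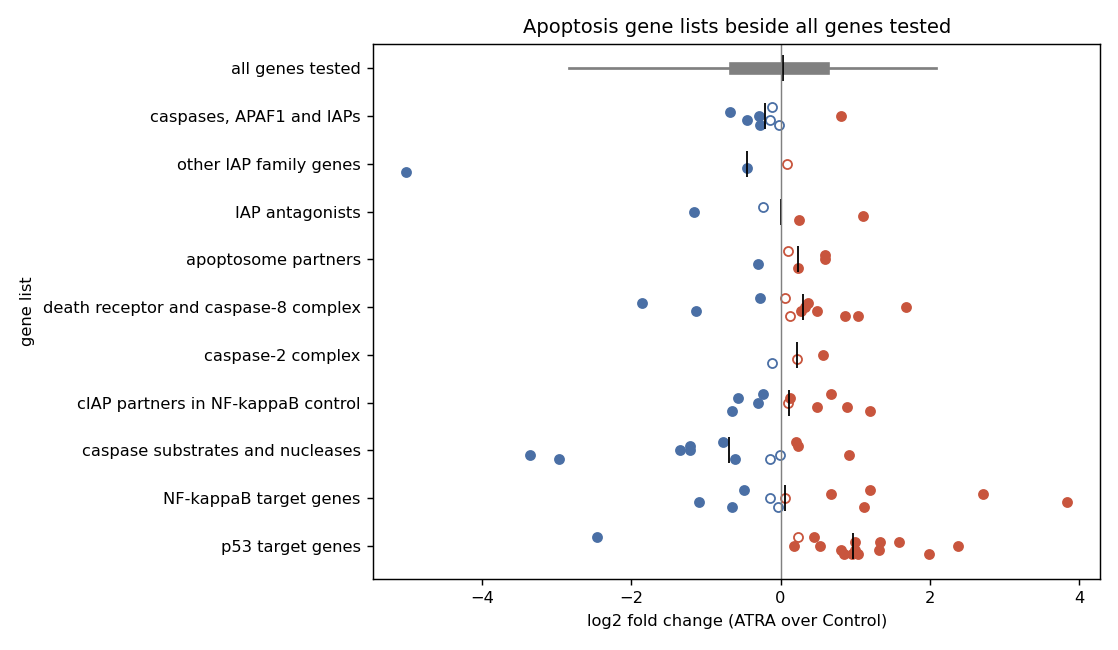
Log₂FC (horizontal axis, ATRA over Control) of every tested gene of the 8-gene set and of the pathway lists. Filled points passed the edgeR test at an adjusted p under 0.05, open points did not, black ticks mark list medians, and the gray bar spans the middle 50% and the gray line the 5th to 95th percentile of all genes tested. The 8 genes lie between -0.68 and 0.81, while lists such as the caspase substrates reach -3.36.

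All 8 genes carry the KEGG pathway Apoptosis in the deposited annotation, a term examined after the data were seen. Of its 139 listed genes 122 were tested, with 39 higher and 58 lower and a median log₂FC of -0.11, and its 79.5% of calls stand beside 79.7% over all genes. The median absolute log₂FC of these genes was 0.63, against 0.28 for the 8. The IAP genes XIAP, BIRC2 and BIRC3 share the terms NF-kappa B signaling, ubiquitin mediated proteolysis and focal adhesion, and CASP8, CASP9 and APAF1 share p53 signaling.

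The gene most like each of the 8 was sought among 10682 other genes by the smallest root mean square difference of centred log2 CPM profiles over the 6 libraries. For BIRC3 it was MAPK8, the stress kinase JNK1 (difference 0.023, log₂FC 0.83). For CASP9 it was CAMKK2 (0.069), for CASP6 TOMM40L (0.044), for CASP8 RASA2 (0.019) and for CASP2 BCCIP (0.027). APAF1 was nearest to ELP4 (0.029), XIAP to SLC35F5 (0.017) and BIRC2 to HERC1 (0.017). With 6 libraries in 2 groups, such a likeness mostly says that the group difference and the deviation of single libraries were similar, and it is a description only.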

How the data were processed

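RNA-seq of 6 libraries was used, 3 per group. Per the study's methods the cells came from 3 animals. The authors enriched poly(A) mRNA, trimmed reads with TrimGalore and fastp, and deposited whole-number read counts per gene without normalization. The submitters' processing notes name HISAT2, featureCounts and DESeq2, and the genome build and strand setting are not given in the sources used here. All 15944 gene names matched RefSeq symbols, and neighbouring or overlapping gene models were read from the RefSeq table (ARS1.2), whose coordinates are not printed. Some caspase results are not reported here.

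The expression filter of edgeR kept 12588 genes, all 8 members included. They were scaled by TMM and tested with the quasi-likelihood test (robust, all 6 libraries, no covariate). For the log₂FC the prior count was 0.125, and the standard error was derived from it and the F statistic. The study's t.test was kept as an alternative, since the values are counts. The other alternatives were DESeq2, a pseudocount of 1, other scalings, filters and fold thresholds, the replicate block and each library left out. The members and lists were chosen with earlier results of these data known. Named genes are the members, the genes of the ratio pairs, the gene most like each member, and up to 3 per direction and list with the largest log₂FC among those that passed the edgeR test without overlap of the groups, at a mean of 1 CPM or more. Other list members are named for their roles, after their values were seen. If libraries of a group are not separate cultures, p-values cover technical spread only. Versions were R 4.3.3, edgeR 4.0.16, DESeq2 1.42.0, Python 3.11.15 and matplotlib 3.10.9.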

Additional observations from a re-analysis of the deposited data

How the results depend on the processing

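Of 112 tested values of the 8 genes under the alternatives, 96 kept their direction and their side of the threshold. The other tested values lay with library size alone, which also moved the median of all genes, and in XIAP and BIRC2 under other alternatives. The 8 values with a pseudocount of 1, which have no test, kept their direction. All 64 directions of the within-library ratios were kept too. Those under the replicate block could not differ, since the block leaves the difference of group means unchanged. With library size alone 6 genes were called higher and 0 lower in place of 1 and 4, and 1 passed the fold rule in place of 0. The log₂FC was then 0.21 for CASP2, 0.022 for CASP6, 0.20 for CASP8, -0.20 for CASP9, 0.36 for APAF1, 0.46 for XIAP and 0.34 for BIRC2. XIAP was at 0.055 with upper-quartile scaling, and at -0.17 to 0.041 with each library left out. BIRC2 passed the test at -0.16 with DESeq2, -0.16 with RLE factors and -0.15 with no filter, and lay between -0.23 and -0.093 with each library left out. The cause was not tested for BIRC2, whose adjusted p lies near the threshold. A |log₂FC| threshold of 0.58 gave 1 gene higher and 1 lower in place of 0 and 0. In the pathway lists, the t.test called 1 gene of the apoptosome list, 1 IAP antagonist and 1 caspase substrate or nuclease higher, in place of 3, 2 and 3. It called 1 other IAP family gene lower in place of 2. With library size alone 5 genes of the apoptosome list were higher and 0 lower, in place of 3 and 1. Caspase substrates and nucleases were then 5 higher and 6 lower, in place of 3 and 7. The correlation of same-numbered deviations was 0.14, 0.0070 and -0.12, and only replicate 1 correlated best with its own number. Whether libraries of the same number share an animal cannot be told from such weak correlations. With the replicate block 79.4% of all genes were called in place of 79.7%, and the 8 genes stayed at 1 higher and 4 lower. The number of libraries, 3 per group, sets the smallest permutation p.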

Other observations

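BIRC3 is itself known as an NF-κB target. Over all genes tested, 40.9% rose and 38.7% fell with ATRA (edgeR, adjusted p under 0.05). Beside BIRC3, 11 genes of an NF-κB target list were tested, of which 5 rose and 3 fell, with a median log₂FC of 0.06. The chemokine gene CXCL8 and the cytokine gene IL6 rose most, from 15.6 ± 1.12 to 223 ± 12.0 CPM and from 15.0 ± 0.725 to 98.7 ± 4.02 CPM (SD, n = 3 each). RELB rose as well, whereas TNFAIP3, TRAF1 and SOD2 were lower, with a log₂FC of -1.09, -0.64 and -0.49, of which that of SOD2 was -0.015 with library size alone. NFKBIA, the feedback inhibitor, was at -0.03 and did not pass (adjusted p = 0.755), or 0.45 and past the threshold with library size alone.

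Among 16 genes of a p53 target list, 14 rose and 1 fell, with a median log₂FC of 0.98, where 40.9% of all genes tested rose and 38.7% fell. BTG2, CDKN1A (the cell cycle inhibitor p21) and BBC3 (the BH3-only protein PUMA) rose with a log₂FC of 2.37, 1.99 and 1.58. TP53I3 fell with -2.46. APAF1, also known as a p53 target, did not pass the test.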
